A study of Mus musculus with 6 samples.

Results

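The genes of the presynaptic release machinery were followed in the degenerate retina of rd1/rd1 mice (rd/rd in the sample titles) between 2 and 8 months of age. They were 38 genes listed by function: the ribbon and active zone scaffolds, the priming factors, the complexins, the SNARE proteins, the synaptotagmins and other vesicle proteins, the vesicular glutamate transporters, and a pair of genes of the photoreceptor synaptic cleft. All 38 have probes on the array, 80 in all, and 31 of the 38 were bright enough to be tested, among 12046 tested genes. Each sample pooled 3 to 6 punches of central retina, each 1.5 mm in diameter, and there were 3 such samples at 2 months and 3 at 8 months. Both ages carry rd1 on both chromosomes, a mutation of the rod phosphodiesterase gene Pde6b that kills rods and then cones, and neither age was treated. There was no retina without the mutation, so the values show change within the degenerate retina and not the distance from a healthy one. The submitters call the pools independent, but which animals each came from is not given in the sources used here, so the p-values speak only of the spread among these pools.

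Photoreceptors and bipolar cells release glutamate without pause, from terminals in which a plate of protein, the ribbon, holds vesicles next to the calcium channels. Amacrine cells, mostly inhibitory neurons of the inner retina, use conventional synapses, which lack a ribbon. Both kinds dock vesicles through SNARE proteins and trigger fusion through synaptotagmins, but they use different family members for several steps. By this knowledge 10 members were put in a photoreceptor-ribbon class (Ctbp2, Cplx3, Cplx4, Stx3, Slc17a7, Rims2, Unc13b, Sv2b, Egflam and Dag1), most of which bipolar cells also use. A further 12 made up a conventional class (Stx1a, Cplx1, Cplx2, Syn1, Syn2, Syn3, Vamp1, Unc13a, Unc13c, Synpr, Sv2c and Slc17a8), and 16 are shared by both kinds of synapse.

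Ctbp2 encodes the ribbon's main protein, RIBEYE, and also a transcriptional corepressor, and RIBEYE is transcribed from a start site of its own inside the gene. The RefSeq table of promoters (GRCm38.p6) holds a pair of windows for Ctbp2, each from 250 bases before to 50 bases after a start, on the minus strand and 66.6 kb apart. They are shown because the array reading of the ribbon gene cannot be assigned to transcripts of either start. Which window belongs to RIBEYE is not given in that table. Capitals mark TAATCC on either strand (GGATTA as printed on the other strand), the core of the sites bound by the photoreceptor factor Crx.
Ctbp2 upstream window, chr7:133081811-133082110: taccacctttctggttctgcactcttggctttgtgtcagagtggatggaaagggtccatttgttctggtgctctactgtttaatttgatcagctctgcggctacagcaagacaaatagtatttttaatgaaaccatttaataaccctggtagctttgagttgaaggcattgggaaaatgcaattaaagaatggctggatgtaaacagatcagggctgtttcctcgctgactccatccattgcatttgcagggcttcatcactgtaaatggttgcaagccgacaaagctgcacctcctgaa
Ctbp2 internal window, chr7:133015198-133015497: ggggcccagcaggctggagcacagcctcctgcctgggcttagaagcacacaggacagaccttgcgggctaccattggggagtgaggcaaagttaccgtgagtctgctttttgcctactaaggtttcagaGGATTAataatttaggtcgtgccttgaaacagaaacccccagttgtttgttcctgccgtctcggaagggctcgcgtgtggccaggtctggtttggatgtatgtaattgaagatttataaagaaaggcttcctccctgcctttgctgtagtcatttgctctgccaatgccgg
The motif stood once in the internal window and not in the upstream one. It was present in 4 of 14 windows of 8 photoreceptor-ribbon genes (Ctbp2, Stx3 and 2 windows of Sv2b), in 0 of 14 windows of conventional genes, in 1 of 14 of the shared genes (Syp) and in 7.06% of all 32851 windows of that length. A match describes the letters only.

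The deposited arrays have nearly the same distribution, so their equal medians of 7.19 do not check quality. Correlations between arrays were 0.99 to 0.996, and 1 on the log2 scale is a 2-fold difference. The bipolar markers, which check the tissue, were present, with 13 of 15 tested, among them the ON bipolar receptor Grm6 at 12.47 ± 0.0628 at 2 months and 12.41 ± 0.0557 at 8 months (SD, n = 3). Of 12 tested cone markers 9 had negative changes, 2 of them called, and the median was −0.83. The cone list as drawn up also held Guca1a and Cngb1, which are not confined to cones. Some samples also differed in traits other than age. The Y-linked gene Eif2s3y read 7.79 in 2 month replicate 1, 8.27 in 2 month replicate 2 and 7.10 to 7.18 elsewhere, at a probe below the filter. The brightest probe of the X-linked gene Xist read 9.40 in 2 month replicate 1, 8.73 in 2 month replicate 2 and 10.48 to 11.10 elsewhere. Sex was not adjusted for in any fit. Markers of red blood cells were higher in every 2 month sample, most of all in 2 month replicate 2. That sample was also the highest in skeletal muscle markers, with a mean deviation of 1.05 against −0.40 to 0.23 in the others, and in pigment epithelium markers, at 0.60 against −0.58 to 0.13. The lowest in pigment epithelium was 8 month replicate 3, at −0.58. The part these differences play in the values below was not tested, apart from the haemoglobin adjustment given with the classes.

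No synaptic gene passed the test. Of the 31 tested members 0 reached an adjusted p below 0.05 in either direction (limma with Benjamini-Hochberg adjustment), where 0.224% of all tested genes were called. The smallest adjusted p among the members was 0.140, for Slc17a8. At an unadjusted p below 0.05 there were 7 members (22.6%), 5 higher and 2 lower, beside 10.4% of all genes. The 3 values of the 2 ages did not overlap for 6 members that were higher at 8 months (19.4%, beside 7.45% of all genes) and for 2 that were lower (6.45%, beside 7.59%). Leaving out 1 sample raised the shares over all genes too, to 11.8% to 14.1% higher and 11.5% to 14.0% lower. Such members were then 7 to 12 higher and 2 to 4 lower. The most were 12 higher (38.7%, beside 12.7% of all genes) without 8 month replicate 2, and 4 lower (12.9%, beside 11.5%) without 8 month replicate 1. With a stricter filter 4 of 28 tested members were higher, and with the mean of all kept probes 5 were. For those 2 settings the share over all genes was not computed. Fewer cells of a type and less RNA per cell cannot be told apart in such samples.

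The changes were small, and the share of them bounded within 0.5 was close to that of all genes. Over the 31 members they ran from −0.31 to 0.48 with a median of 0.05, beside a median of 0.000482 over all genes. For 29 members the 95% interval of the change lay within 0.5 of 0 on the log2 scale, a 1.41-fold difference in either direction. That was 93.5% of the tested members, beside 95.5% of all genes, and Cplx2 and Syt11 were the exceptions. All 9 tested photoreceptor-ribbon genes were among the 29. In the same arrays Arr3, the cone arrestin, fell by 1.55 (SE 0.127, limma adjusted p = 0.00936) and Gnat2, the cone transducin alpha subunit, fell by 0.86 (SE 0.0818, adjusted p = 0.0169). These are the 2 called genes of the 12 tested cone markers and do not stand for the list. In that list 3 changes were positive, and 4 intervals lay within 0.5 of 0. The median size of the change, without its sign, was 0.0998 for the members and 0.0561 for all genes. The median standard error was 0.0788 for the members and 0.0654 for all genes. By these medians the members moved more than all genes and were bounded less closely.

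**Figure D1:**
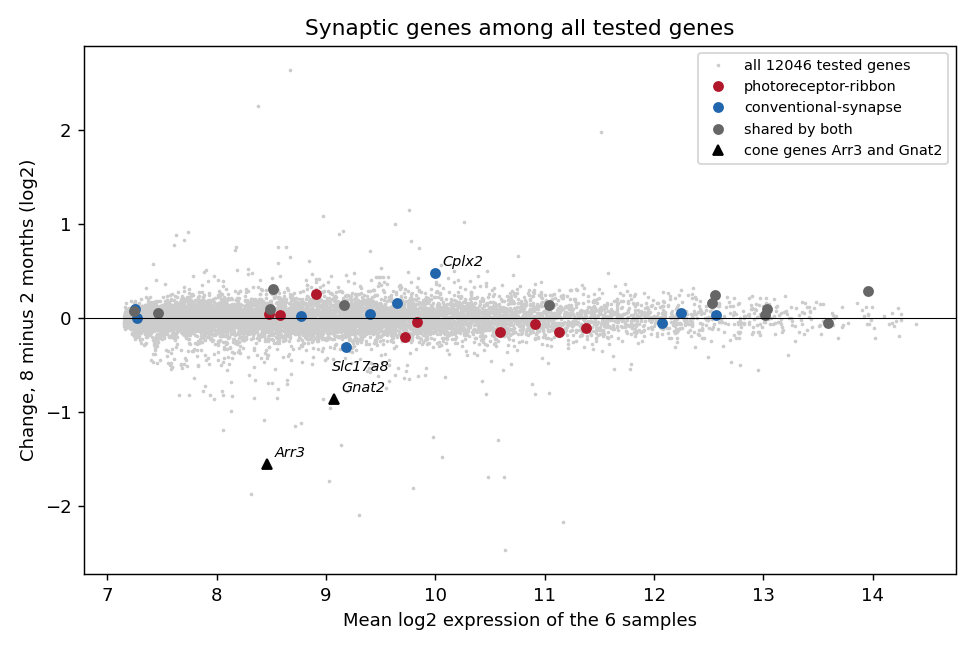
Change from 2 to 8 months (log2, vertical axis) against the mean log2 expression of the 6 samples for every tested gene, with the 31 synaptic genes as coloured points by class and the cone genes Arr3 and Gnat2 as black triangles. The synaptic genes lie between −0.31 and 0.48, while Arr3 is at −1.55 and Gnat2 at −0.86. Arr3 and Gnat2 are the 2 called genes of 12 tested cone markers.

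Among the scaffolds, the ribbon gene Ctbp2 was at 8.41, 8.45 and 8.51 in the 2 month samples and at 8.38, 8.57 and 8.55 in the 8 month samples. The ages overlapped, and the change was 0.05 (SE 0.0654, 95% interval −0.11 to 0.20), with 0.06 at its other probe. Piccolo (Pclo), a large scaffold protein of active zones, was at 7.38, 7.49 and 7.44 at 2 months and 7.51, 7.52 and 7.46 at 8 months, again with overlap. Its 3 probes had changes of 0.04 to 0.06, and the dimmest, at 7.13 to 7.23, lay about the array median of 7.19. Rims1, which links vesicles to calcium channels, was at 11.03, 11.02 and 10.88 at 2 months and 11.07, 11.14 and 11.12 at 8 months. All 8 month values were above all 2 month values, but the change of 0.14 (SE 0.0571) did not pass (limma adjusted p = 0.464), and a dimmer probe had one of 0.05. Rims2, its relative in photoreceptor terminals, ranged from 9.66 to 9.97 with overlap and a change of −0.04 (SE 0.0844). Erc2, a structural protein of the active zone also called CAST, had a change of 0.14 (SE 0.0791) with overlap, resting mostly on 9.40 in 8 month replicate 1. Rimbp2, which binds Rims and calcium channels, was at 7.21, 7.22 and 7.19 at 2 months and 7.28, 7.27 and 7.31 at 8 months. These did not overlap but lie barely above the array median of 7.19, and its other probes had changes down to −0.04.

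The priming factors make docked vesicles ready to fuse. Unc13b, the Munc13 used at photoreceptor ribbons, was at 10.59, 10.71 and 10.69 at 2 months and 10.59, 10.52 and 10.45 at 8 months. The 8 month values were all lower, though 2 month replicate 1 and 8 month replicate 1 differed by only 0.00411, and the change of −0.14 (SE 0.0580) had an unadjusted p of 0.0409 and a limma adjusted p of 0.447. Unc13c had a change of −0.05 (SE 0.141) with 8 month replicate 2 the lowest sample, at 11.70, while its dimmer probes had changes of 0.07 and 0.20.

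The complexins, small proteins that clamp and then assist the SNARE complex, come as a ribbon pair, Cplx3 and Cplx4, and a conventional pair, Cplx1 and Cplx2. Cplx3 was at 8.49, 8.75 and 8.46 at 2 months and 8.55, 8.71 and 8.53 at 8 months. The ages lay within the same range (change 0.03, SE 0.0920). Cplx4, the complexin of photoreceptor terminals, was at 9.95, 9.74 and 9.76 at 2 months and 9.50, 9.82 and 9.54 at 8 months. Replicates 1 and 3 of 8 months were below every 2 month sample and replicate 2 was not, and the change of −0.20 (95% interval −0.43 to 0.03) had a limma adjusted p of 0.574. Cplx2 was at 9.76, 9.48 and 10.04 at 2 months and 10.14, 10.18 and 10.40 at 8 months. It had the largest change of the 31, at 0.48 (SE 0.140, 1.39-fold, 95% interval 0.15 to 0.81), with no overlap, and did not pass over all genes (limma adjusted p = 0.286). With the haemoglobin level as a covariate its change was −0.04, while those of Cplx1, Cplx3 and Cplx4 were −0.07, 0.37 and −0.31. Red blood cell levels do not overlap between the ages, so that fit has little left to compare. Cplx1 ranged from 12.47 to 12.79 with overlap and a change of 0.03 (SE 0.0938).

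At the probe used for the test, none of the 5 tested SNARE and recycling genes separated the ages. Stx3, the syntaxin of ribbon synapses, was between 10.81 and 11.06 with a change of −0.06 (SE 0.0745), and its 4 probes had changes from −0.09 to −0.04. At 1 of the dimmer probes the 8 month values of Stx3, 7.51, 7.53 and 7.47, were all below the 2 month values, 7.62, 7.63 and 7.54. Stx1a, the syntaxin of conventional synapses, was between 9.35 and 9.46 with a change of 0.05 (SE 0.0513). Vamp1 and Vamp2, the vesicle's own SNAREs, had changes of 0.03 (SE 0.0767) and 0.16 (SE 0.0788), and Nsf, the ATPase that takes SNARE complexes apart, one of 0.03 (SE 0.0743). At these probes the ages overlapped, and none of the 5 had an unadjusted p below 0.05.

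**Figure D2:**
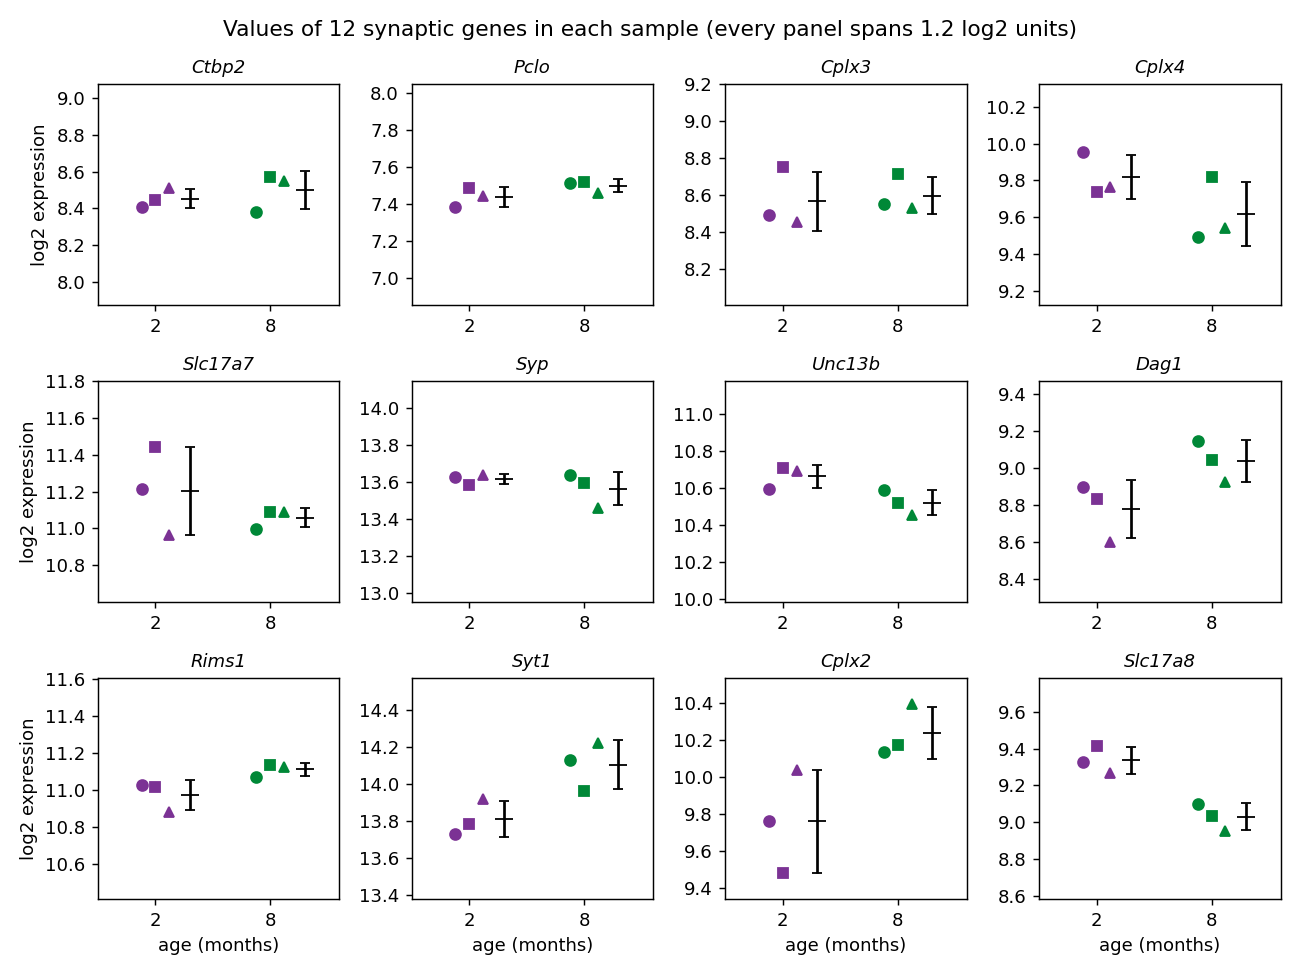
Log2 expression of 12 synaptic genes in each sample, with age in months on the horizontal axis, 2 month samples in purple and 8 month samples in green (circle, square and triangle for replicates 1, 2 and 3), and the mean ± SD in black. Every panel spans the same 1.2 log2 units, and the ages separate for Unc13b, Dag1, Rims1, Syt1, Cplx2 and Slc17a8 but not for Ctbp2, Pclo, Cplx3, Cplx4, Slc17a7 and Syp.

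The synaptotagmins had positive changes throughout, in 4 of the 4 tested. Syt1, the fast calcium sensor of release, was at 13.73, 13.78 and 13.92 at 2 months and 14.13, 13.96 and 14.22 at 8 months. The ages did not overlap, and the change of 0.29 (SE 0.0816, 1.23-fold) had an unadjusted p of 0.00801 and a limma adjusted p of 0.263, while its other probes had changes of 0.11 and 0.13. Syt4, a member that does not bind calcium in the usual way, was at 12.51, 12.29 and 12.51 at 2 months and 12.74, 12.49 and 12.83 at 8 months. 8 month replicate 2 fell within the 2 month range, and the change was 0.25 (SE 0.102, limma adjusted p = 0.464). Syt11 had a change of 0.31 (SE 0.150) with overlap, and its other probe had one of 0.04, so its probes disagree. Syt5 had a change of 0.10 (SE 0.0629) with overlap. With the haemoglobin level as a covariate, the changes of Syt4 and Syt11 were −0.02 and −0.13, and those of Syt1 and Syt5 were 0.23 and 0.03.

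Among vesicle proteins, synaptophysin (Syp), the standard marker of synaptic vesicles, was at 13.62, 13.58 and 13.64 at 2 months and 13.64, 13.59 and 13.46 at 8 months. Only 8 month replicate 3 lay apart, and the change was −0.05 (SE 0.0587, 95% interval −0.19 to 0.09). The synapsins, which tether vesicles in conventional terminals and are missing from ribbon terminals, had changes of 0.06 for Syn1 (SE 0.136), 0.16 for Syn2 (SE 0.0904) and 0.001 for Syn3 (SE 0.0473), each with overlap. Syn3 lay between 7.24 and 7.32, barely above the array median of 7.19, so its small change says little. A dimmer probe of Syn1 had a change of 0.17 with no overlap. In the fit with the haemoglobin covariate the changes were 0.57 for Syn1, 0.19 for Syn2 and −0.07 for Syn3. The SV2 glycoproteins had changes of 0.10 for Sv2a (SE 0.0789), −0.10 for Sv2b (SE 0.0686), the form found in ribbon terminals, and 0.10 for Sv2c (SE 0.0473). Sv2c was at 7.17, 7.21 and 7.23 at 2 months and 7.30, 7.26 and 7.34 at 8 months. That is without overlap, but 1 of its 2 month values was below the median of its array, and changes so close to background may be compressed.

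The vesicular glutamate transporters load vesicles with transmitter. Slc17a7, or VGLUT1, the transporter of photoreceptors and bipolar cells, was at 11.21, 11.44 and 10.96 at 2 months and 11.00, 11.09 and 11.09 at 8 months. The 8 month values lay inside the 2 month range, and the change was −0.15 (SE 0.113, 95% interval −0.41 to 0.12). Slc17a8, or VGLUT3, which marks a glutamate-releasing type of amacrine cell, was at 9.33, 9.41 and 9.27 at 2 months and 9.10, 9.04 and 8.95 at 8 months. Every 8 month value was below every 2 month value, and the change of −0.31 (SE 0.0613, 1.24-fold, 95% interval −0.45 to −0.16) had the smallest p of the members, 0.00136 unadjusted and 0.140 adjusted (limma). With the haemoglobin level as a covariate it was −0.17 (limma adjusted p = 0.853), and the change of Slc17a7 was 0.30 (limma adjusted p = 0.741).

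In the cleft of the photoreceptor synapse, pikachurin (Egflam) binds dystroglycan (Dag1) and helps bipolar dendrites meet the ribbon. Dag1 was at 8.90, 8.83 and 8.60 at 2 months and 9.15, 9.04 and 8.92 at 8 months. The ages did not overlap and the change was 0.26 (SE 0.0930, unadjusted p = 0.0252, limma adjusted p = 0.389), but its other probe had a change of −0.002, and Dag1 is also made by glia and vessels. In the fit with the haemoglobin covariate the change of Dag1 was 0.38. Egflam was at 7.13, 7.15 and 7.25 at 2 months and 7.19, 7.13 and 7.15 at 8 months, too dim to be tested.

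Egflam was 1 of 7 members below the filter. Bassoon (Bsn), which holds the ribbon to the membrane, was at 7.17, 7.21 and 7.08 at 2 months and 7.20, 7.14 and 7.17 at 8 months, with overlap. The others were Erc1, Unc13a, Snap25, Syt2 and Synpr. The brightest probe of each of the 7 lay between 7.05 and 7.25 in every sample, so no change could be read for them. Snap25, a SNARE of nearly all neurons, had both of its probes at 7.06 to 7.16. A dim probe does not show a silent gene here: 1 probe of Syt4 was at 7.10 to 7.16 while the other was at 12.29 to 12.83, and 2 probes of Syn2 were at 7.06 to 7.23 while the third was at 9.51 to 9.85.

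**Figure D3:**
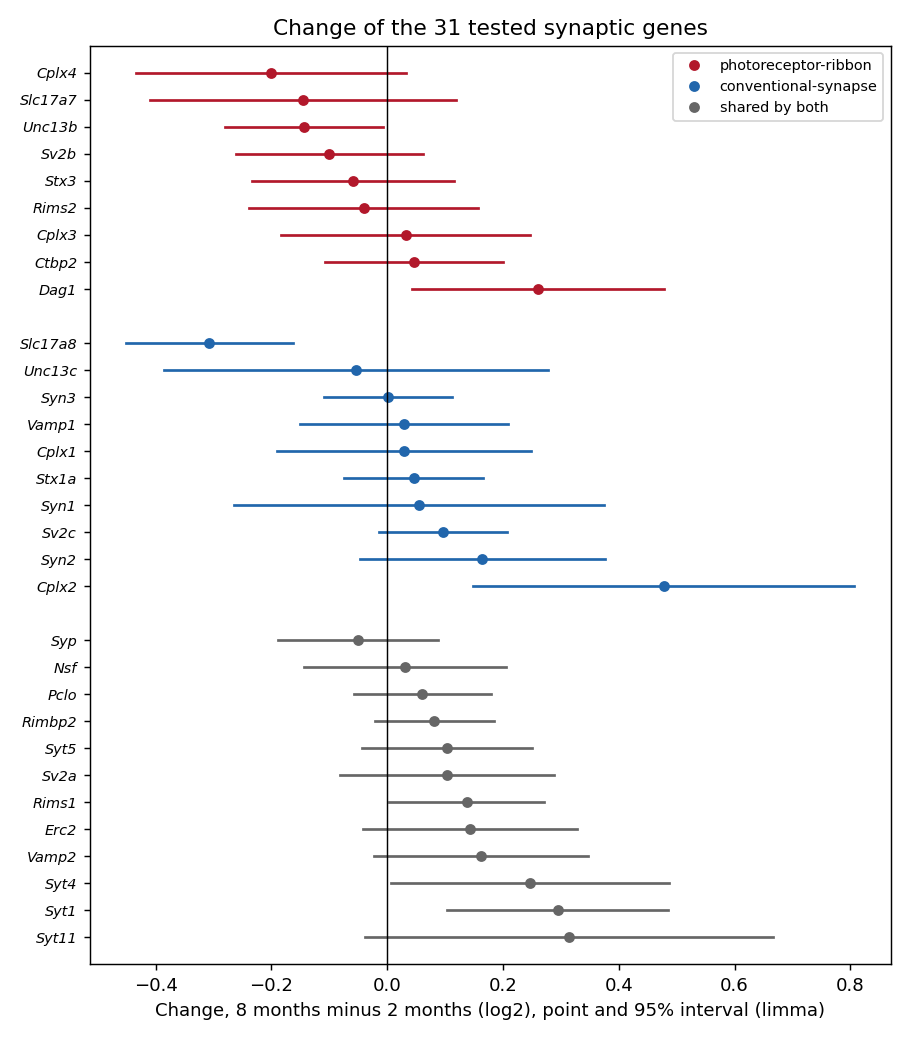
Change from 2 to 8 months (log2, horizontal axis) of the 31 tested synaptic genes, grouped by class, with the limma 95% interval of each gene as a line. In the photoreceptor-ribbon class 6 of 9 points lie below 0, against 2 of 10 in the conventional class and 1 of 12 in the shared class.

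Signs differed between the classes, with no test of that difference. Of the 9 tested photoreceptor-ribbon genes, 6 had negative and 3 positive changes, with a median of −0.06. Of the 10 tested conventional genes, 2 were negative and 8 positive, with a median of 0.04, and of the 12 shared genes 1 was negative and 11 positive, with a median of 0.12. Among all genes 6046 were positive and 6000 negative. No class held a called gene (limma), and at an unadjusted p below 0.05 there were 2 (22.2%), 2 (20.0%) and 3 (25.0%), beside 10.4% of all genes.

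The mean of the conventional genes minus that of the photoreceptor-ribbon genes, each gene taken relative to its own mean over the 6 samples, was −0.06, −0.12 and 0.05 in the 2 month samples and 0.11, −0.08 and 0.11 in the 8 month samples. The ages overlapped, since 8 month replicate 2 lay among the 2 month samples. With the haemoglobin level as a covariate both medians changed sign, to 0.03 for the photoreceptor-ribbon and −0.05 for the conventional class. The members' standard errors, with a median of 0.0788, had one of 0.153 in that fit.

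Markers of several cell types differed in level between the ages. Of 14 tested amacrine markers 13 were positive, 2 of them called (limma), where 0.224% of all tested genes were called. The summed log2 level of the 14 was 142.4 to 142.9 at 2 months and 145.1 to 147.0 at 8 months. Cone markers summed to 116.0 to 120.0 at 2 months and 102.0 to 108.9 at 8 months. The markers that rods and cones share, all 11 negative and 1 of them called, summed to 96.1 to 98.9 and 92.4 to 94.2. Bipolar markers overlapped between ages, at 145.1 to 146.1 and 144.5 to 145.5, with a median change of −0.05. The 3 tested red blood cell markers, all negative, summed to 32.0 to 36.3 and 28.6 to 28.8. The 4 tested horizontal cell markers, all negative, summed to 34.3 to 34.6 and 33.7 to 33.8. Of the pigment epithelium markers 12 of 13 were negative (median −0.43), of skeletal muscle 8 of 8 (−0.48) and of lens 10 of 11 (−0.19), with summed levels that overlapped for all 3 lists. Ganglion cell markers (7 of 8 positive, median 0.10) and Müller glia markers (5 of 9 positive, median 0.01) also overlapped. The photoreceptor-ribbon genes themselves summed to 89.2 to 90.2 and 88.9 to 89.7. The part of these markers in the synaptic values was not tested beyond the haemoglobin covariate.

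**Figure D4:**
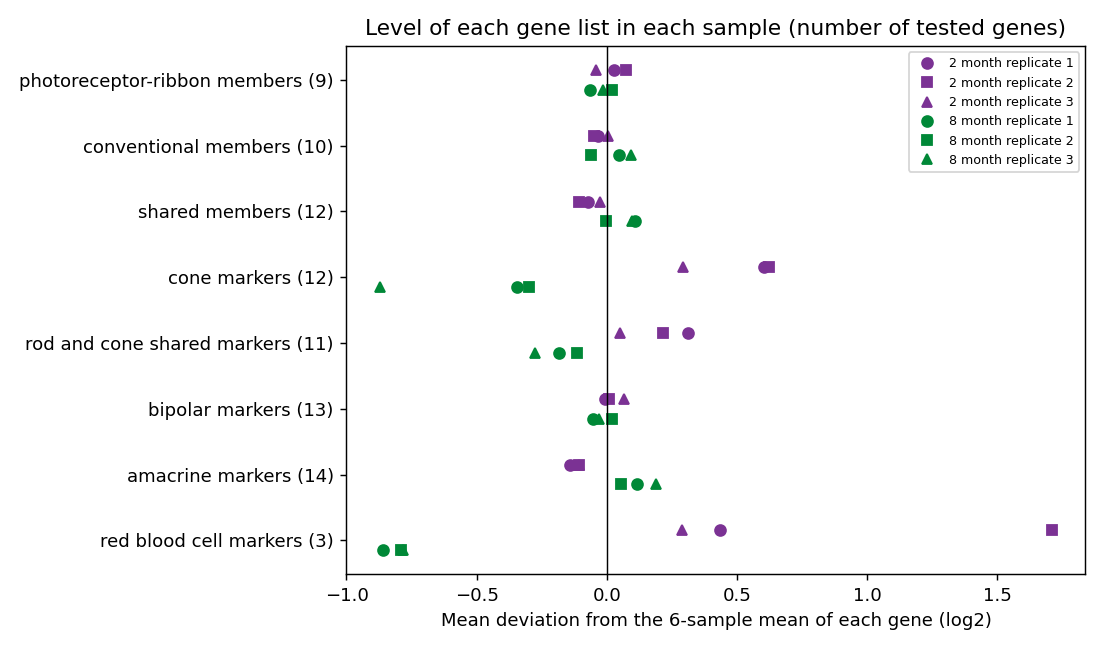
Mean deviation of each gene list from the 6-sample mean of its genes (log2, horizontal axis) in every sample, for the 3 classes of synaptic genes and for marker lists of cell types, with 2 month samples in purple and 8 month samples in green. The photoreceptor-ribbon members lie between −0.06 and 0.07 at both ages, while the cone markers lie at 0.29 to 0.62 at 2 months and −0.87 to −0.30 at 8 months.

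No gene of the wider release machinery was called either. Of 85 further genes listed by function 80 had a probe and 74 were tested, with 0 called (limma), beside 0.224% of all genes. At an unadjusted p below 0.05 there were 8 higher and 3 lower, 14.9% of the tested, beside 10.4% of all genes. Their median change was 0.04. The genes of the photoreceptor terminal, among them Cacna1f, the calcium channel under the ribbon, had 7 positive and 4 negative changes, and Cacna1f itself had one of 0.05 (SE 0.0571). The SNARE and priming partners had 10 positive and 9 negative, the active zone partners 8 and 3, the other vesicle proteins 11 and 7 and the genes of vesicle endocytosis 12 and 3.

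The 3 smallest p-values of positive change belonged to Snap91, Syt12 and Amph. Snap91, a clathrin adaptor of nerve terminals, was at 7.90, 7.97 and 7.93 at 2 months and 8.16, 8.16 and 8.11 at 8 months. The ages did not overlap and the change was 0.21 (SE 0.0462, limma adjusted p = 0.168), with 0.17 at its other probe. Syt12 and Amph, or amphiphysin, had changes of 0.22 (SE 0.0738) and 0.16 (SE 0.0570), with 0.007 and 0.01 at the probes that moved least. The 3 smallest of negative change belonged to Dnajc5b, a relative of the vesicle chaperone CSP alpha, at −0.17 (SE 0.0570), Rims3, at −0.21 (SE 0.0750), and Rph3a, or rabphilin, at −0.21 (SE 0.0748). Their adjusted p-values were 0.341 to 0.396 (limma).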

How the data were processed

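Expression was measured on single-colour Illumina bead arrays with biotinylated cRNA, per the labels' protocols. The deposited values, 1 per probe and sample, were taken as log2 because they span 6.98 to 14.5, and all arrays have nearly the same distribution. The authors' normalization, software and background correction: not given in the sources used here. If the transform only approaches log2, changes of dim genes are compressed. Having 3 arrays at each age limits the precision.

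Ages and replicate numbers came from the sample titles, with which the descriptions disagree for the numbers of the 2 month samples. Of 45281 probes 34885 had 1 gene symbol in the GEO annotation of the array. A probe was kept above the 50th percentile of its array on at least 3 arrays (22458 probes), and each gene was read from its kept probe with the highest mean. Changes, 8 minus 2 months, were fitted in R 4.3.3 using limma 3.58.1 (lmFit, eBayes, 4 residual and 3.31 prior degrees of freedom, no covariate), and p-values were adjusted by Benjamini-Hochberg across the 12046 tested genes, with calls below 0.05. Errors are limma's moderated standard errors, and the 95% intervals are for each gene alone. The test was checked on simulated data.

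The members, classes, marker lists and further presynaptic genes were chosen with earlier results of these data known, and medians and counts over them are descriptions. Each member is named, with values in every sample where the ages did not overlap, where the unadjusted p was below 0.05, and for Ctbp2, Bsn, Pclo, Cplx3, Cplx4, Slc17a7, Egflam and Syp. Of the further genes, the 3 with the smallest p in each direction are named. Cacna1f, Grm6, Arr3, Gnat2, Eif2s3y and Xist were added outside that rule. The alternatives were other normalizations, no filter and a stricter one, the mean of all kept probes, another variance prior, the replicate number as a block, the haemoglobin level as a covariate, and leaving out each sample.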

Additional observations from a re-analysis of the deposited data

How the results depend on the processing

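In all 15 alternatives no member and none of the further presynaptic genes was called (limma), with the members' smallest adjusted p between 0.119 and 0.634. Of 462 recomputed member values 443 stayed within 1 SD of the replicates and 28 changed sign, 9 of them with the haemoglobin covariate. The trended prior, the replicate block and both filter settings left the size of each change as it was. Repeated quantile normalization and centring on the median hardly moved any, since the arrays already had nearly the same distribution. The 443 therefore says little about stability. Most of the 19 that moved further came from the haemoglobin covariate. That covariate moved the medians to 0.0348 for photoreceptor-ribbon and −0.0531 for conventional genes and left 0 genes called higher and 0 lower over all genes, with 839 at an unadjusted p below 0.05 (limma). The red blood cell levels do not overlap between ages, so this fit has little left to compare. The calls over all genes, 19 higher and 8 lower, became 5 and 2 with no filter, 52 and 52 with a trended robust prior, and 2 to 12 higher and 0 to 19 lower on leaving out 1 sample. A stricter filter gave 21 lower and the replicate block 18 lower. Deviations of same-numbered samples correlated at 0.02, 0.14 and 0.16, and those of different-numbered samples at −0.15 to 0.002. With 3 samples at each age these values cannot decide whether the numbers pair the samples. Leaving out 1 sample gave medians of 0.0367 to 0.0883 for the members, with 7 to 12 members higher and 2 to 4 lower without overlap, beside 11.8% to 14.1% and 11.5% to 14.0% of all genes. Signal over background limits what can be read: 7 members were too dim to be tested, so whether they changed is not known.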
